A study of Mus musculus with 6 samples.

Results

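Proteasome genes were followed in bone marrow progenitors that had or had lost both c-Myc and N-Myc. Genes were taken by symbol, as those whose name begins with Psm, a letter from a to f and a number, and each was read from the brightest of its probe sets with 1 annotated symbol. This gave 45 of the 18193 genes measured, read from 95 probe sets. Of the 45, 43 encode proteasome subunits, regulators or assembly factors, and Psmc3ip and Psme3ip1 match by name only, being named after a proteasome protein that binds them. The genes set against the rest were the immunoproteasome subunits Psmb8, Psmb9 and Psmb10 and the activator subunit Psme1. Their partner Psme2 was left out, since it shares its probe set with a near copy and no value could be assigned to it.

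The proteasome is the barrel-shaped protease that breaks down proteins tagged with ubiquitin. Its 20S core has outer rings of alpha subunits and inner rings of beta subunits, of which Psmb5, Psmb6 and Psmb7 cut the protein chain, and its 19S cap recognises, unfolds and feeds in the substrate. Interferons make cells replace those cutting subunits with Psmb8, Psmb9 and Psmb10, forming the immunoproteasome, and add the PA28 activator made of Psme1 and Psme2. Blood cells carry much immunoproteasome even at rest, and it supplies many of the peptides shown on MHC class I.

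The cells were sorted as Lin- Sca1+ CD150+ CD48+ from mice 8 weeks old and on a mixed background. The control group held c-myc f2 N-myc f2 mice, with floxed alleles and no Cre, in 3 pools of 2 mice. The double knockout group, dKO, held MxCre c-myc f2 N-myc f2 mice in 3 pools of 3 mice. All mice, controls included, had 2 daily injections of pI-pC, a double-stranded RNA that induces interferon, the last of them 3 days before the cells were taken. MxCre is itself switched on by interferon and only the dKO mice carried it, so an effect of the transgene and of the lost genes cannot be told apart. Each pool was hybridised to 1 Affymetrix array, and values are on the log2 scale after RMA, the authors' background correction, normalization and summary of probes.

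Medians over all probe sets lay between 5.91 and 5.94 on the 6 arrays. Myc was lower on every dKO array than on any control array and fell by 2.97 ± 0.21 (SE; limma over all probe sets, adjusted p = 0.0003), although the labels do not say whether its probe set lies in the deleted exons. The 3 Mycn probe sets differed: they changed by -5.27 with separate groups, by -0.83 with overlapping groups and by 0.34 with dKO above control. The label for control 1 calls its tissue LT-HSCs, although its gate and title are those of the other arrays. Xist was bright on control 1 and dKO 1 (7.17 to 11.32 over 3 probe sets) and lay between 3.73 and 5.86 on the other arrays. Of the gate genes, Slamf1, which encodes CD150, averaged 8.31 in control and 9.10 in dKO, and Cd48 11.23 and 11.43. Both had overlapping groups and did not pass (limma over all genes, adjusted p = 0.264 and 0.664). Ly6a, which encodes Sca1, was not measured by a probe set of its own. The arrays hold RNA of whole sorted populations, so fewer cells of a type and less RNA per cell cannot be told apart.

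The upstream windows of the 4 immunoproteasome and PA28 genes are shown because interferon is known to act on these genes through short promoter motifs. Each runs from 250 bases before to 50 after the RefSeq start on GRCm38.p6 and is written 5′ to 3′ on the gene's strand. Capitals mark the interferon-stimulated response element as GAAANNGAAA, the STAT site as TTCNNNGAA and the E-box bound by MYC and MAX as CACGTG, each searched on both strands, and no matches overlap in these windows.
Psmb9, chr17:34187281-34187580, minus strand: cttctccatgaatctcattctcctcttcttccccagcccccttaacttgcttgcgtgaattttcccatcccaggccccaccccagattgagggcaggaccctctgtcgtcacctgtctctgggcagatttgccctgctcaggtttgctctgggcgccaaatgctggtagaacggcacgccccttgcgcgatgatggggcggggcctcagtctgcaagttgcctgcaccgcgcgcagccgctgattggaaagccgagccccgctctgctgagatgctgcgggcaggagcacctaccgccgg
Psmb8, chr17:34197945-34198244, plus strand: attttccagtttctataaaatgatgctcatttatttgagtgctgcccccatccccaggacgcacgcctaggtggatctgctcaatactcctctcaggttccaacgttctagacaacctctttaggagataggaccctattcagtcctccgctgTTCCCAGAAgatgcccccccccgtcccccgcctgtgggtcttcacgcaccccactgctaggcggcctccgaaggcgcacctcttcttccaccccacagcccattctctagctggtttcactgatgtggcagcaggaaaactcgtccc
Psmb10, chr8:105938343-105938642, minus strand: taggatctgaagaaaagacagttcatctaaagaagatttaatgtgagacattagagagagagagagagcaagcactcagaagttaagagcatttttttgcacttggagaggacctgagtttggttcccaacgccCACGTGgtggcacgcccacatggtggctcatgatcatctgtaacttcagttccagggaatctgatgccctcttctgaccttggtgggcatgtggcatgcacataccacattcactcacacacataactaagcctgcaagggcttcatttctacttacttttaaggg
Psme1, chr14:55578244-55578543, plus strand: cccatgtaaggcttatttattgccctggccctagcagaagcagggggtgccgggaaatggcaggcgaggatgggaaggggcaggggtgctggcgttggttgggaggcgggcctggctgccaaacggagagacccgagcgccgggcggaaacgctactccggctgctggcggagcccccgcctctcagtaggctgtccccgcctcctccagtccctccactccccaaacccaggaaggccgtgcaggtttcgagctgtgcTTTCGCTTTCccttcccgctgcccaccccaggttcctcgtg
Psme1 holds 1 response element, at base 260 of its window, Psmb8 holds 1 STAT site, at base 154, Psmb10 holds 1 E-box, at base 135, and Psmb9 holds none of them. The Psmb9 window shares 275 bases with that of Tap1, the peptide transporter gene that starts next to it on the other strand. Windows were given for 38 of the 45 genes, 41 in all. The response element was in 4 of the 41 (9.76%, against 3.44% of all 32851 windows), those of Psmb3, Psmd4, Psmd9 and Psme1. The STAT site was in 2 (4.88%, against 8.3%), those of Psmb8 and Psmd2, and the E-box in 5 (12.2%, against 7.15%). The antioxidant element TGACNNNGC, the kind of site used by the factor that raises proteasome genes when the proteasome is blocked, was in 6 (14.6%, against 12.4%). These are matches of letters and not shown binding sites.

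Most proteasome genes lay a little above control in dKO, and 1 of the 45 passed the test. That gene, Psma8, was lower. The median log2 fold change of the 45 genes was 0.18, with 38 above 0 (84.4%), against a median of 0.05 and 57.6% above 0 over all 18193 genes. With limma and Benjamini-Hochberg adjustment over all genes, 0 members were higher and 1 was lower, or 2.22% called, against 5.97% of all genes (3.12% higher and 2.85% lower). At an unadjusted p under 0.05 there were 3 higher members, Psmb9, Psmb8 and Psmc3, and 1 lower, against 18.2% of all genes in either direction. The lowest dKO array exceeded the highest control in 9 members (20%, against 12.7% of all genes) and all dKO arrays lay below the controls in 1. In either direction, groups were separate for 22.2% of members and 23.4% of all genes. Under the other scalings of the arrays 34 to 36 members lay above 0.

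**Figure D1:**
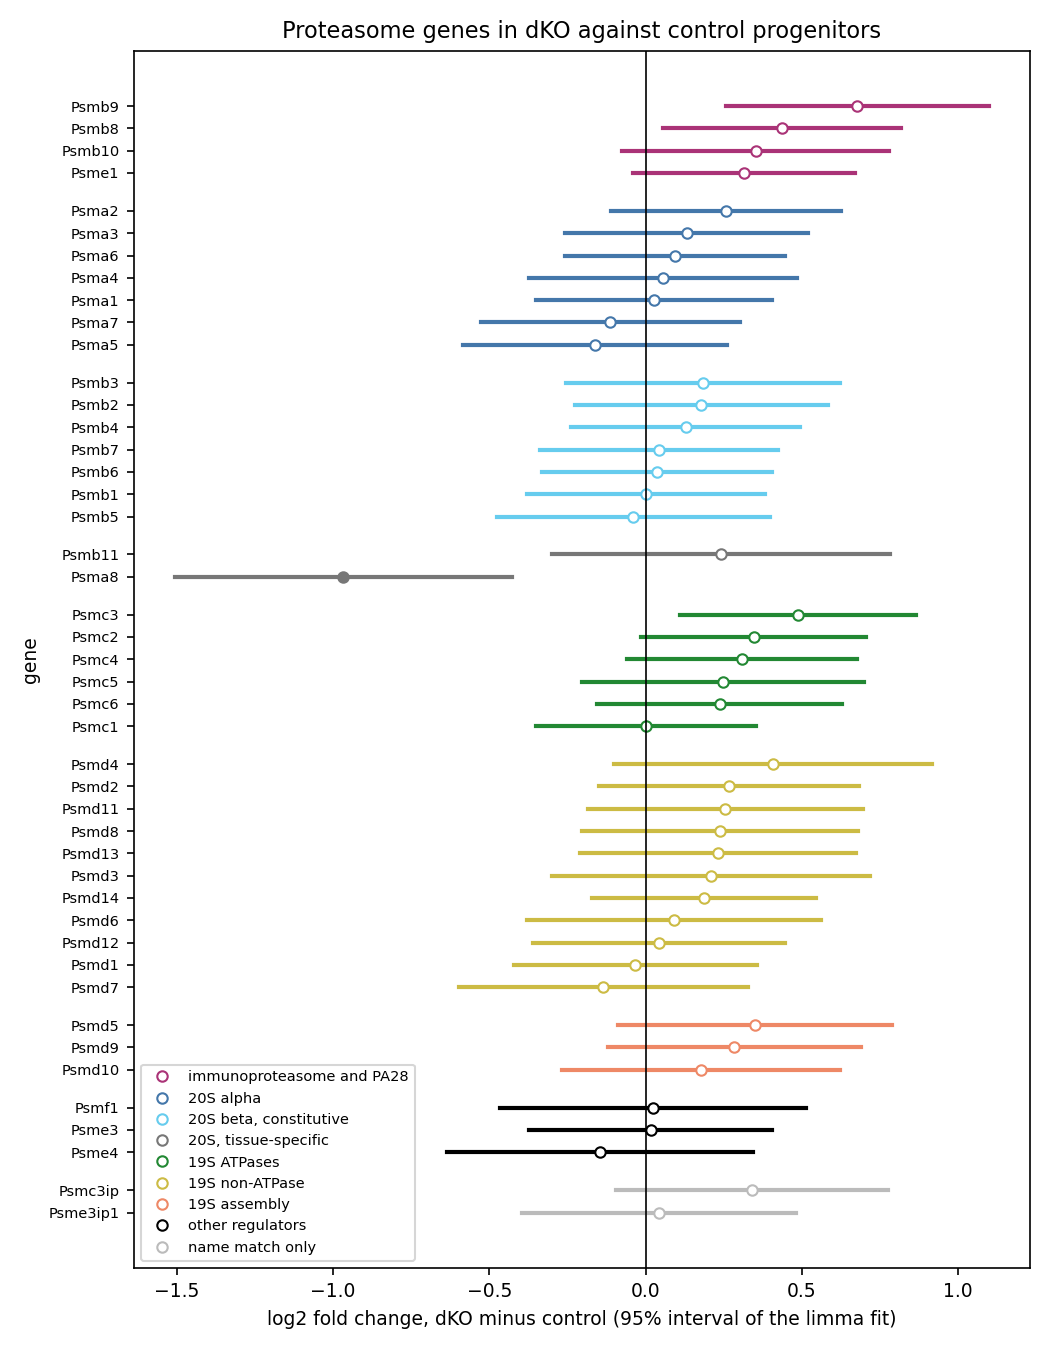
Log2 fold change (dKO minus control, x axis) of each of the 45 genes, grouped by role, with the 95% interval of the limma fit as a line; a filled point marks adjusted p below 0.05. Psmb9 has the highest value of the members at 0.68, and Psma8 at -0.97 is the filled point.

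The median standard error of these fold changes was 0.18 on the log2 scale, so a typical 95% interval reached 0.42 to either side. A change of the size of most members therefore could not be separated from no change with 3 arrays a group. Replicates were a little closer for these genes than for genes in general, with a median SD of 0.12 in control and 0.21 in dKO, against 0.18 and 0.26 over all genes. The comparison was not matched for level, and members were brighter, averaging 9.56 to 9.63 on control arrays against 6.48 to 6.49 for all genes.

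The immunoproteasome genes and Psme1 had the highest median of the subunit classes, and all 4 values were above 0, but 0 of the 4 passed the test. Their median log2 fold change was 0.39, against 0.13 for the other 41 members (0.07 without dKO 2) and 0.05 for all genes. Groups did not overlap for 3 of the 4, with dKO above control, against 6 of the other 41 (14.6%) and 12.7% of all genes. The class was chosen knowing earlier results of these arrays, and its difference from the other members was described only, with no test.

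Psmb9, which takes the place of Psmb6 in the core, read 11.26, 10.91 and 11.12 on control 1, 2 and 3 and 11.80, 11.97 and 11.55 on dKO 1, 2 and 3. All dKO arrays were above all controls, with dKO 2 the highest and control 2 the lowest. The means were 11.10 ± 0.18 and 11.77 ± 0.21 (SD, n = 3). The log2 fold change was 0.68 ± 0.19 (SE), or 1.60-fold with a 95% interval of 1.19 to 2.14, and the limma adjusted p was 0.0715. Under other settings that p ran from 0.0105 to 0.242. It passed the threshold with dim genes left out (0.0397), with probe sets averaged (0.0496), with a variance trend (0.0105), with array weights (0.025) and without dKO 3 (0.0452).

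Psmb8, which takes the place of Psmb5, read 10.89, 10.95 and 10.75 in control and 11.12, 11.41 and 11.36 in dKO. The groups did not overlap, and dKO 1 lay closest to the controls. The log2 fold change was 0.44 ± 0.17, or 1.35-fold (95% interval 1.04 to 1.76), with limma adjusted p = 0.205. Its second probe set, dim with a mean of 3.83 over the arrays, changed by 0.28 with overlapping groups.

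Psmb10, which takes the place of Psmb7, read 9.20, 9.45 and 9.19 in control and 9.60, 9.40 and 9.89 in dKO. Here dKO 2 lay below control 2, so the groups overlapped. The log2 fold change was 0.35 ± 0.19, with limma adjusted p = 0.386, and it was 0.22 without dKO 3.

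Psme1, which forms the PA28 activator with Psme2, was the most even of the 4 genes across arrays, reading 11.10, 10.99 and 11.11 in control and 11.33, 11.44 and 11.39 in dKO. The groups were apart by more than the range within either of them. The log2 fold change was 0.32 ± 0.16, or 1.24-fold (95% interval 0.97 to 1.59), with limma adjusted p = 0.345.

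**Figure D2:**
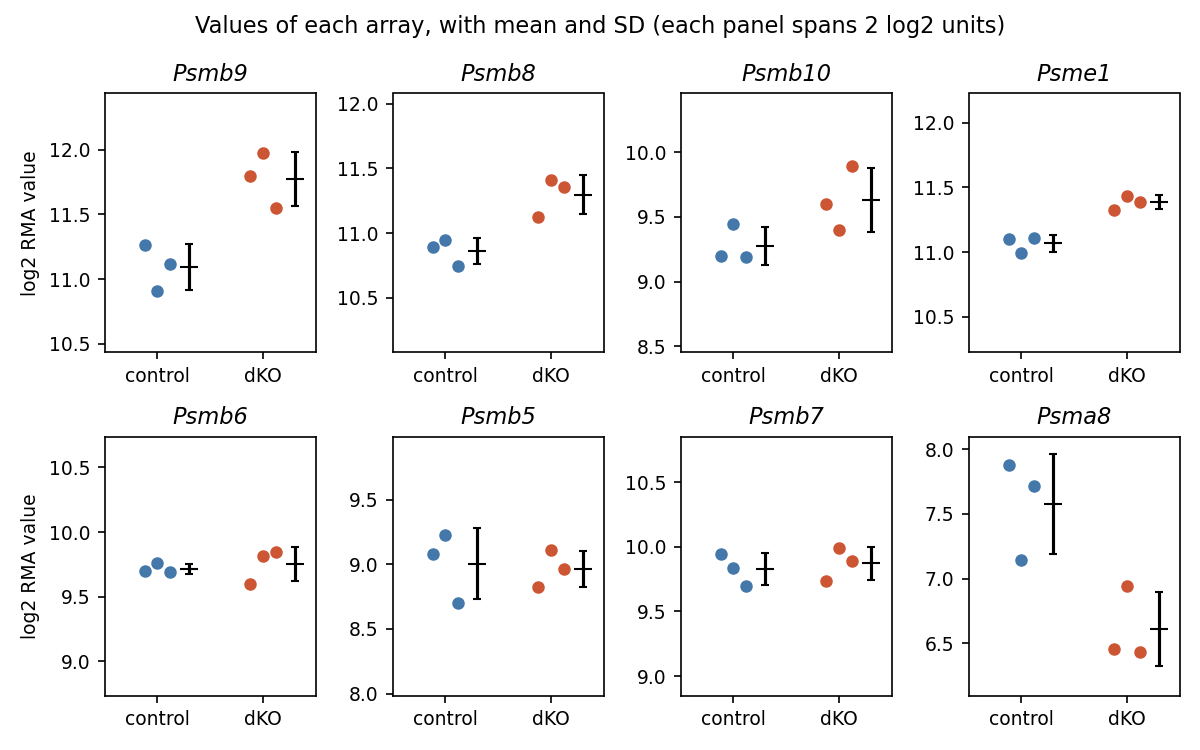
Log2 RMA values on each array (points; control blue, dKO orange) with the group mean and SD beside them, for Psmb9, Psmb8, Psmb10 and Psme1 (top) and Psmb6, Psmb5, Psmb7 and Psma8 (bottom); each panel spans 2 log2 units. The groups are apart for Psmb9, Psmb8, Psme1 and Psma8 and overlap in the other panels.

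The cutting subunits that these genes replace had log2 fold changes near 0. Psmb5 read 9.08, 9.23 and 8.70 in control and 8.83, 9.11 and 8.96 in dKO, a log2 fold change of -0.04 ± 0.19. Psmb6 read 9.70, 9.76 and 9.69 in control and 9.60, 9.82 and 9.84 in dKO (0.04 ± 0.16), and Psmb7 9.95, 9.84 and 9.70 in control and 9.73, 9.99 and 9.89 in dKO (0.04 ± 0.17). Groups overlapped in all 3 of these genes, and their signs turned with the setting. Their 95% intervals ran from -0.48 to 0.40, -0.33 to 0.40 and -0.34 to 0.42, so changes as large as that of Psme1 lie inside them.

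Set against its counterpart on the same array, Psmb8 moved 0.48 further than Psmb5, Psmb9 0.64 further than Psmb6 and Psmb10 0.31 further than Psmb7 (log2, dKO minus control). For the Psmb8 pair, the ratio relative to its control mean lay between -0.14 and 0.19 on the control arrays and between 0.44 and 0.54 on the dKO arrays. For the Psmb9 pair it lay between -0.23 and 0.18 in control and 0.33 and 0.82 in dKO. Both pairs thus separated the groups, as Psmb8 and Psmb9 did alone, whereas the Psmb10 pair overlapped (-0.20 to 0.16 and -0.04 to 0.56). These ratios show unequal change only, were not tested, and were not set beside ratios of other gene pairs.

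Psma8 encodes an alpha subunit known from the testis, where it stands in for Psma7. It was the one member that passed the test, and it fell. It read 7.88, 7.14 and 7.72 in control and 6.46, 6.94 and 6.43 in dKO. The groups did not overlap, although control 2 and dKO 2 lay close together. The log2 fold change was -0.97 ± 0.24, or 1.95-fold lower, and the limma adjusted p of 0.0481 was just under the threshold of 0.05. The adjusted p was 0.155 without control 1, 0.164 without control 3, 0.144 without dKO 1, 0.116 without dKO 3, and 0.334 with both arrays numbered 1 left out. Psma8 has a single probe set, and detection calls were not used here. Psma7 itself, with a log2 fold change of -0.11 ± 0.18, did not pass. Psmb11, the beta subunit of the thymus, lay between 4.18 and 5.10 over the 6 arrays and changed by 0.24 ± 0.24 without passing.

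The remaining core subunits differed little between the groups. Of the 7 alpha subunits Psma1 to Psma7, which form the gated outer rings, 0 passed. Their median was 0.06, and they ran from -0.16 for Psma5 to 0.26 for Psma2. Groups were apart, with dKO above control, for 1 of the 7 (14.3%, against 12.7% of all genes). This was Psma2, reading 10.56, 10.67 and 10.54 in control and 10.79, 10.76 and 10.99 in dKO (limma adjusted p = 0.483). Of the 7 constitutive beta subunits Psmb1 to Psmb7, 0 passed and 0 had separate groups, with a median of 0.04 and a range from -0.04 to 0.18.

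The 17 subunits of the 19S cap had a median of 0.24, against 0.05 for the 14 constitutive core subunits, a difference that was not tested, and 0 of either passed. The 6 ATPases Psmc1 to Psmc6, which form the ring that unfolds the substrate, had a median of 0.28 and all lay at or above 0, from 0.00 for Psmc1 to 0.49 for Psmc3. Of these, 4 had dKO arrays all above control arrays (66.7%, against 12.7% of all genes). Psmc3 read 9.49, 9.81 and 9.65 in control and 10.13, 10.07 and 10.20 in dKO, with a log2 fold change of 0.49 ± 0.17 and limma adjusted p = 0.149. Its dKO arrays were closer together than its controls.

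Psmc2 read 10.08, 10.25 and 10.20 in control and 10.60, 10.47 and 10.50 in dKO (0.35 ± 0.16). Its other probe sets changed by 0.31 and 0.46. Psmc4 read 9.70, 9.79 and 9.77 in control and 10.19, 9.92 and 10.07 in dKO (0.31 ± 0.16), with 0.33 on its second probe set. Probe sets of these ATPases therefore gave like values. Psmc6 changed by 0.24 ± 0.17 (0.14 without dKO 2), and its dimmer probe sets by 0.15 and -0.04. In contrast Psmc1 stood at 10.59 in both groups, with SDs of 0.06 and 0.02.

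The 11 non-ATPase cap subunits, which hold the ubiquitin receptors and the scaffold of the lid, had a median of 0.21 and 9 of them lay above 0. Psmd4, a ubiquitin receptor, had the highest value at 0.41 ± 0.23, but its arrays overlapped (9.19, 9.38 and 8.88 in control, 9.54, 9.21 and 9.92 in dKO). Its dimmer probe sets changed by 0.12 and 0.09. Groups were separate, with dKO above control, for 1 of the 11 (9.09%, against 12.7% of all genes). This was Psmd14, the enzyme that cuts ubiquitin off the substrate, reading 11.03, 10.86 and 10.94 in control and 11.11, 11.19 and 11.09 in dKO (0.19 ± 0.16). The scaffold subunits Psmd2 and Psmd1 changed by 0.27 and -0.03. Psmd7, the partner of Psmd14 in the lid, had the lowest value at -0.14.

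Psmd5, Psmd9 and Psmd10, chaperones that help build the cap base, changed by 0.35, 0.28 and 0.18, and all had overlapping groups. Psme3, a nuclear activator of the core, stood at 11.12 ± 0.12 and 11.14 ± 0.17. Psme4, the activator PA200, changed by -0.15 ± 0.22 and Psmf1, a protein that binds and inhibits the core, by 0.02 ± 0.22. None of these 6 genes passed, with 0.407 the lowest limma adjusted p.

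The class means followed the arrays as well as the groups. Relative to the control mean, the immunoproteasome and PA28 genes averaged between -0.04 and 0.04 on the control arrays and 0.39, 0.48 and 0.47 on dKO 1, 2 and 3. The 19S ATPases averaged 0.28, 0.32 and 0.21 on the dKO arrays, and between -0.04 and 0.06 on the controls. The non-ATPase cap subunits averaged 0.21, 0.17 and 0.10, with the highest control at 0.09, and the 3 assembly chaperones 0.18, 0.52 and 0.11, with the highest control at 0.08. All 4 of these class means thus lay above every control on the dKO arrays, the last 2 narrowly (0.10 against 0.09 and 0.11 against 0.08). The tissue-specific genes Psma8 and Psmb11 went the other way. They averaged -0.33, -0.34 and -0.42 on the dKO arrays, against -0.13 to 0.21 on the controls. How often other gene sets separate the groups was not tested. The alpha subunits averaged -0.05, 0.21 and -0.04 on dKO 1, 2 and 3, so their dKO mean rested on dKO 2, and the constitutive beta subunits averaged -0.07, 0.13 and 0.17, with control 2 at 0.11.

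**Figure D3:**
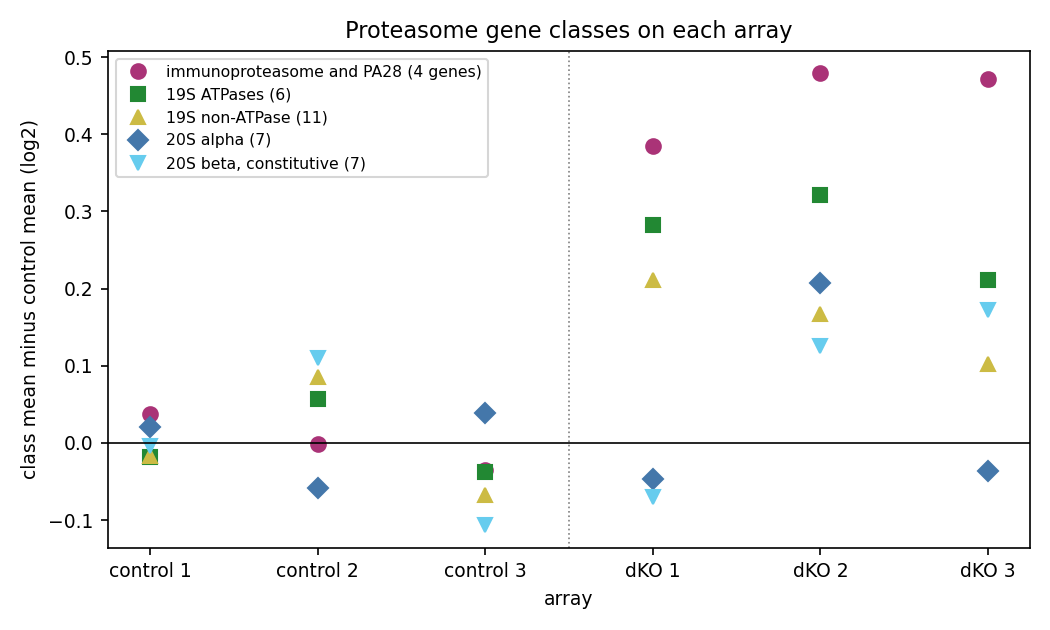
Mean log2 value of each class on each array (x axis), minus its mean over the control arrays (y axis); each point is 1 class on 1 array. The immunoproteasome and PA28 genes lie at 0.39 to 0.48 on the dKO arrays, the 19S ATPases at 0.21 to 0.32, and the alpha subunits at -0.05 to 0.21.

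The array dKO 2 carried the highest of the 6 values for 21 of the 45 members and the lowest for 0. Over all genes it carried the highest value for 12.3% and the lowest for 19.7%. The array dKO 3 carried the highest for 11 members, and over all genes for 32%. Without dKO 2, 30 of the 45 members lay above 0, including the 4 immunoproteasome and PA28 genes. For those 4 this was fixed in advance. Psmb9, Psmb8 and Psme1 had separate groups, and dKO 2 was the lowest dKO array for Psmb10.

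Probe sets of one gene did not always give one sign. Of the 24 members with several probe sets, 12 had at least 1 of opposite sign. Psmd13 ran from -0.49 to 0.35 over 4 probe sets, Psmd11 from -0.24 to 0.48 over 8 and Psma3 from -0.44 to 0.13. Psmc2, Psmc4, Psma6 and Psmb8 had 1 sign throughout. Over the 95 member probe sets 70 lay above 0 and 0 passed the limma test adjusted over all probe sets with 1 symbol, of which 54.4% lay above 0. Psma8 did not pass there either.

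Genes that work beside the proteasome had a median near 0. Of 14 measured partners, which include assembly chaperones, deubiquitinases, ubiquitin shuttles and transcriptional regulators, 0 were higher and 0 lower by limma, with 1 lower at an unadjusted p under 0.05 and a median of 0.02. Of the 14, 8 lay above 0 (57.1%, against 57.6% of all genes). The mean of the 14 was lower on the dKO arrays, at -0.06, -0.05 and -0.17 relative to the control mean. Deviations on the controls were -0.02 to 0.01. That mean includes Psmg4, whose fold change was the furthest from 0 among the 14. Psmg4, a chaperone of the core's alpha ring, read 7.34, 7.96 and 7.82 in control and between 6.36 and 7.05 in dKO, with every dKO array below every control. Its log2 fold change was -0.91 ± 0.25, with limma adjusted p = 0.0671, which ran from 0.0178 to 0.228 over the other settings, and the fold change was -0.52 with probe sets averaged. Rad23b, a ubiquitin shuttle, changed by -0.41 (-0.26 without control 1), and Psmg2, another assembly chaperone, by -0.32 (-0.10 without dKO 3). Ecpas, a scaffold that binds the proteasome, changed by -0.23, or -0.37 with probe sets averaged. Pomp, the maturation factor of the core, changed by 0.02 and Nfe2l1, the factor that raises proteasome genes under proteasome blockade, by 0.16, neither past the threshold.

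Genes of the MHC class I pathway, which shows peptides the proteasome makes, mostly had fold changes above 0, with few calls. The list also holds the regulators Irf1 and Nlrc5 and the protein folding helpers Calr, Canx and Pdia3, which are not class I genes themselves. Of 13 measured, 1 rose, the regulator Irf1, and 0 fell (7.69% called, against 5.97% of all genes). Of the 13, 12 lay above 0 (92.3%, against 57.6%), and 8 had dKO arrays all above control (61.5%, against 12.7% of all genes). Their median was 0.41. Irf1, an interferon-induced activator of Psmb9 and of class I genes, rose by 0.79 ± 0.17 (limma adjusted p = 0.0294), from 8.94, 8.99 and 8.97 in control to 9.98, 9.70 and 9.58 in dKO. The call was lost without control 1 (0.0958), control 2 (0.1005), control 3 (0.1105), dKO 1 (0.104) or dKO 2 (0.0607). Tap1 read 9.47, 9.90 and 9.50 in control and 10.44, 10.17 and 10.71 in dKO, with a log2 fold change of 0.82 ± 0.21 (limma adjusted p = 0.0516). With probe sets averaged it was 0.32 (0.291), and the adjusted p ran from 0.0164 to 0.301 over all settings, under 0.05 in 5 of 16. Tap2, its partner in the peptide transporter, changed by 0.51 ± 0.18, and Tapbp, which loads peptide onto class I, by 0.54 ± 0.19.

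In RefSeq's gene order on chromosome 17, Psmb9, Tap1, Psmb8 and Tap2 lie side by side inside the MHC, in that order. All 4 genes had dKO arrays above all control arrays, against 12.7% of all genes, with log2 fold changes of 0.68, 0.82, 0.44 and 0.51. Of the 4, 0 passed the threshold, although Psmb9 and Tap1 did under some settings and Tap1 was 0.32 with probe sets averaged. These genes come from lists chosen with earlier results known. The next gene beyond Psmb9, H2-DMb1, was not among those followed, and a shared change of the locus was not tested. Psmb10 lies on chromosome 8, between Ctrl and Lcat. Psme1 lies on chromosome 14, with a single protein-coding gene, Emc9, between it and Psme2.

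Interferon-stimulated genes, which interferon switches on, were mostly higher in dKO. Of 22 measured, 6 rose and 1 fell (31.8% called, against 5.97% of all genes), with a median of 0.59 and 19 above 0. The number that rose was 3 without control 1 and dKO 1 together, and 4 to 6 without any single array. Usp18, which removes the ubiquitin-like modifier ISG15 and dampens interferon signalling, rose by 1.97 ± 0.22 (limma adjusted p = 0.00121), from 5.97, 6.35 and 6.16 to 8.20, 8.46 and 7.74. Ifit1, which binds foreign RNA, rose by 1.55, the RNA sensors Ddx58 and Ifih1 by 1.42 and 0.92, the antiviral gene Rsad2 by 1.20 and the guanylate-binding protein gene Gbp2 by 0.97. Bst2, which tethers virus particles and marks plasmacytoid cells in mice, fell by 1.16. The calls of Gbp2 and Ifih1 were lost without control 1 (adjusted p = 0.0616 and 0.0668), control 2 (0.0793 and 0.0758) and dKO 2 (0.055 and 0.0621), and that of Ifih1 also without control 3 (0.0867) and dKO 1 (0.0734). Their part in the values of the immunoproteasome genes was not tested.

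**Figure D4:**
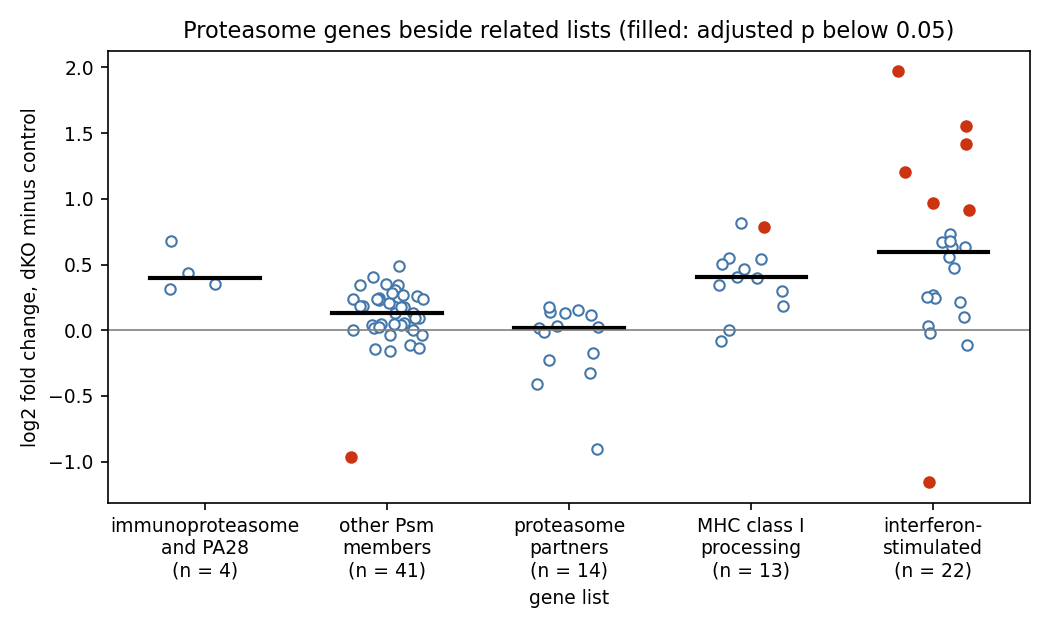
Log2 fold changes (dKO minus control, y axis) of single genes in 5 lists (x axis); bars are list medians, and filled points have adjusted p below 0.05. Medians are 0.39 for the immunoproteasome and PA28 genes, 0.13 for the other members, 0.02 for proteasome partners, 0.41 for MHC class I processing and 0.59 for interferon-stimulated genes.

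Markers of other blood cell types also moved with the groups. For comparison, 3.12% of all genes passed the threshold upwards and 2.85% downwards. T and NK cell markers were mostly higher, with 9 of 14 past the threshold upwards and 0 downwards. Their mean log2 value lay between 6.12 and 6.62 on control arrays and between 7.49 and 7.81 on dKO arrays. Monocyte and dendritic cell markers went the other way, with 6 of 14 lower and 0 higher, and means of 8.35 to 8.86 in control and 7.21 to 7.58 in dKO. Of 10 B cell and lymphoid markers 0 rose and 2 fell, with means of 6.80 to 7.15 and 5.93 to 6.37 and a median log2 fold change of -0.21. The fallen genes were Dntt (-4.99) and Rag1 (-2.28), and 4 of the 10 lay above 0. Of 10 megakaryocyte and erythroid markers 5 rose and 0 fell, with means of 7.47 to 7.56 and 8.89 to 9.26. Among the defining markers, Cd3e averaged 6.43 in control and 7.40 in dKO, Ncr1 5.27 and 7.18, Csf1r 10.38 and 7.94, and Ms4a1 3.51 and 3.77. Of these, Cd3e and Ms4a1 did not pass (limma adjusted p = 0.161 and 0.832). Cd247, a T and NK marker that went the other way, averaged 10.11 in control and 9.66 in dKO without passing (limma adjusted p = 0.389). RMA values have no true 0, and the part of these cells in the proteasome values was not tested.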

How the data were processed

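Expression was measured on 6 Affymetrix arrays, 3 control and 3 dKO, each from a separate pool of mice. Per the labels' protocols, RNA was extracted with Trizol and amplified in 2 rounds with a Nugen kit. The deposited values are log2 values that the authors made with RMA, per the submitters' processing notes; whether 1 RMA run covered all arrays, and its version, were not given in the sources used here. RMA shrinks dim probe sets towards background, so their fold changes are understated.

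Of 45101 probe sets, 64 were controls, 34945 had 1 gene symbol, 932 several and 9160 none. Symbols other than those of members were updated through gene identifiers against RefSeq (GRCm38.p6). Each of 18193 genes was represented by its brightest probe set over the 6 arrays. Groups were compared with lmFit and eBayes of limma 3.58.1 (R 4.3.3, two-sided), adjusted by Benjamini-Hochberg over all genes at 0.05, after a check on simulated data. Members and lists were chosen with earlier results of these data known. All members were accounted for, and array values were given for the immunoproteasome genes, their counterparts and called members; further members with array values were chosen after their values were seen, for separate groups or a class's highest value. From the partner, class I and interferon lists, called genes and at most 4 with the smallest p were named; Pomp, Nfe2l1 and a few marker genes were named after their values were seen. Alternatives changed the filter, probe set choice, scaling, variance model, array weights, replicate block, threshold and arrays. Sequences are from RefSeq. Figures used matplotlib 3.10.9.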

Additional observations from a re-analysis of the deposited data

How the results depend on the processing

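With 3 arrays a group, changes below about 0.42 on the log2 scale lie within the usual interval of a single proteasome gene. The number of members higher in dKO, 0 as reported, was 1 with dim genes left out, with probe sets averaged, with a variance trend, with array weights and at an adjusted p of 0.1, and from 0 to 1 with single arrays left out; in each case the gene was Psmb9. The number lower, 1 as reported, was 0 with array medians subtracted, with quantile normalization again, with the mean of middle-level genes subtracted, at an adjusted p of 0.01 and without control 1 and dKO 1 together, and from 0 to 1 with single arrays left out. Under these 3 scalings Psma8 had adjusted p = 0.056, 0.0606 and 0.0526. The replicate block gave 0 higher and 0 lower members, with Psma8 at adjusted p = 0.0911 and Irf1 at 0.0588, and 999 genes called in all against 1086. Whether the numbers pair the arrays was not settled. Deviations from the group means correlated at 0.06, -0.00045 and 0.02 between arrays of the same number. Control 1 correlated best with dKO 1 and control 3 with dKO 3, but control 2 also with dKO 3 (0.04). Correlations this small cannot show or exclude a pairing.

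With single arrays left out, the median of the immunoproteasome and PA28 genes ran from 0.358 to 0.458 and that of the other members from 0.0709 to 0.137, against pooled SDs between arrays of 0.0760 and 0.0532. The other members' median without dKO 2, 0.0709, moved from 0.132 by more than the pooled SD and by less than the SD of the dKO arrays alone, 0.0676; the pooled SD was chosen as the yardstick after these values were seen, in place of the larger group's SD, and no other value of either median changed sides with that choice. Under the settings run, all 4 immunoproteasome and PA28 genes lay above 0. For Psmb9, Psmb8 and Psme1 this was fixed in advance with arrays left out, since their groups were separate. Psmb10 ran from 0.22 to 0.47. Genes followed singly were the immunoproteasome genes, Psme1, the counterparts and members with unadjusted p under 0.05 or separate groups. From the related lists they were called genes and those with the smallest p. Where groups were separate, leaving arrays out could not turn the sign, so that result was fixed in advance. Other members did turn, since 30 of 45 lay above 0 without dKO 2, against 38 with all arrays. Among the genes followed, signs turned only for the cutting subunits near 0. Psmb6 was -0.0266 with array weights and Psmb5 0.0699 without control 1 and dKO 1 together. With single arrays left out, Psmb5 ran from -0.192 to 0.0736, Psmb6 from -0.008 to 0.114 and Psmb7 from -0.0197 to 0.113. Causes of these differences between settings were not tested.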
